A study of Mus musculus with 4 samples.

Results

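The pentose phosphate pathway enzymes are the 7 mouse genes that encode its standard steps, *G6pdx*, *Pgls* and *Pgd* for the oxidative branch and *Rpe*, *Rpia*, *Taldo1* and *Tkt* for the non-oxidative branch. The rule names the pathway steps and uses no value, but it was set with earlier results of these data known, and *G6pdx*, *Pgls* and *Tkt* are in a list that the study made on these libraries. All 7 were among the 21957 genes of the table, and all 7 were among the 10199 genes with a mean of at least 1 FPKM (fragments per kilobase of transcript scaled to the mapped fragments of the library) over the 4 libraries.

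Oocytes of B6D2F1 (C57BL/6 x DBA) females of 6 to 8 weeks, primed with pregnant mare serum gonadotropin and stripped of cumulus cells with hyaluronidase, were studied with or without tubastatin A (TubA), a small molecule made to inhibit the deacetylase HDAC6. The GV library came from oocytes at the germinal vesicle stage (the immature, arrested oocyte with an intact nucleus), taken at 0 h of culture. The MII library came from oocytes cultured for 12 h in M16 medium without TubA, and those were kept only if they had extruded a polar body. The TubA-10 and TubA-20 libraries came from oocytes cultured for 12 h with 10 and 20 µM TubA, the doses in the sample titles, although the treatment field gave 20 µM for the former and 11 µM for the latter. TubA was dissolved in DMSO, and the vehicle of the MII oocytes was not given in the sources used here. The methods gave pools of 100 oocytes, with 1 library for each condition. No replicate existed, which leaves no measure of the spread within a condition, and no test is given. Oligo(dT) selection was used, so a loss of an mRNA, a shortening of its poly(A) tail and a lower RNA content per oocyte cannot be told apart, nor can fewer cells of a type be told from less RNA per cell.

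The pathway branches off from glycolysis at glucose 6-phosphate. Its oxidative branch is a major source of cytosolic NADPH, which drives glutathione recycling and reductive synthesis, and its product ribulose 5-phosphate is rearranged by the non-oxidative branch into ribose 5-phosphate for nucleotides or back into glycolytic sugars. In mouse cumulus-enclosed oocytes, flux through this route is a known stimulus of meiotic resumption, and oocytes carry large maternal mRNA stores whose poly(A) tails are lengthened or shortened during maturation. Cytoplasmic polyadenylation elements (CPEs), short U-rich motifs of the 3′ UTR, are the best known signals for lengthening.

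The 3′ ends of the 7 mRNAs are shown because that lengthening is set there. Each sequence is 30 bases of the transcript strand of the principal GENCODE transcript, 5′ to 3′, on GRCm38. TTTTAT and TTTTAAT were searched as CPEs, and AATAAA and ATTAAA in the last 50 bases as polyadenylation signals, all on the transcript strand. The principal transcripts of the 3 oxidative enzymes held no CPE in the whole 3′ UTR. The last bases of their transcripts follow, with the polyadenylation signal in capitals.
G6pdx (chrX:74409483-74409512, minus strand): ccctgccATTAAAtcctcaaaacagtttta
Pgls (chr8:71596240-71596269, plus strand): ctagctgcggATTAAAcagctttgctggaa
Pgd (chr4:149149991-149150020, minus strand): cccacttgtAATAAActtttagactggttt

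The principal transcripts of the 4 non-oxidative enzymes each held at least 1 CPE. The stretch around the CPE nearest to the transcript end follows for each, with the element in capitals.
Rpe (chr1:66719293-66719322, plus strand): attaatacttgtTTTTATtttagcttacga
Rpia (chr6:70766273-70766302, minus strand): cttgattttatgTTTTATatgaaaccttac
Taldo1 (chr7:141402910-141402939, plus strand): ataggattctgaTTTTATgtgaaattttgt
Tkt (chr14:30574649-30574678, plus strand): aagtctacaggcTTTTATtgtgcaaacctt

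*Rpe* and *Rpia* carried 3 elements each, *Tkt* 2 and *Taldo1* 1. The nearest lay 47 bases from the transcript end in *Taldo1*, 60 in *Tkt*, 501 in *Rpe* and 571 in *Rpia*. A CPE anywhere in the 3′ UTR was common, in 60.2% of 10027 genes with a principal transcript, so its presence in 4 of the 7 enzymes is near the background and says nothing particular about them, and 3 of the 7 held one in every coding transcript. By comparison, a CPE in the last 150 bases, as in *Taldo1* and *Tkt*, was found in 25.2%. A polyadenylation signal stood in the last 50 bases of all 7, against 78.7% of all genes. The 3′ UTRs ranged from 78 bases in *Pgls*, shorter than nearly all others, to 1929 in *Rpe*, with a median of 927 over all genes. A match of letters is a description of the sequence and not a proven site.

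The genes lie on 7 different chromosomes of GRCm38. The oxidative genes are *G6pdx* (ENSMUSG00000031400, chrX:74409483-74429194), *Pgls* (ENSMUSG00000031807, chr8:71592176-71601092) and *Pgd* (ENSMUSG00000028961, chr4:149149991-149166771). The non-oxidative genes are *Rpe* (ENSMUSG00000026005, chr1:66700831-66719805), *Rpia* (ENSMUSG00000053604, chr6:70765720-70792232), *Taldo1* (ENSMUSG00000025503, chr7:141392199-141402968) and *Tkt* (ENSMUSG00000021957, chr14:30548359-30574720).

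Oocyte identity and depth were checked first. Of 14 oocyte markers, 13 were at or above 1 FPKM in each library. Their levels were not steady. In TubA-20, 5 of the 13 measured were more than 2-fold below GV, against 23.9% of all genes (the zona pellucida genes *Zp1*, *Zp2* and *Zp3*, and *Figla* and *Padi6*). Another 2 were more than 2-fold above, against 16.2% (*Gdf9* and *Oosp1*). *Zp2*, *Zp3*, *Figla* and *Padi6* also passed 2-fold below MII and TubA-10 in that library, against 5.22% and 11.8% of all genes. *Figla* was at -2.77 on the log2 scale of FPKM + 1 against GV. The 5 lower markers were low in the same library as *G6pdx*, *Pgls* and *Tkt* below, and their part in those values was not tested. Of 15 cumulus and granulosa markers, 3 to 5 were at or above 1 FPKM in each library. The defining granulosa factor *Foxl2* was at 0 in every library, and the list summed to 27.9 FPKM in GV and 22.4 to 26.3 FPKM in the others. The granulosa gene *Inha* stood at 7.5 FPKM in GV against 0.24 to 0.31 FPKM in the other libraries, and *Inhba*, *Inhbb* and *Fshr*, all below 1 FPKM, were also highest in GV. Other markers of the list ran the opposite way, with *Kitl* at 0.952 FPKM in GV and 2.03 to 2.75 FPKM in the others, *Cyp19a1* at 6.14 FPKM and 7.42 to 10.3 FPKM, and *Ptx3* and *Tnfaip6* at 0 in GV and 1.19 and 1.57 FPKM in TubA-20. The part of these markers in the values below was not tested. The 4 haemoglobin genes among the blood markers were at 0 throughout. From steps in the low FPKM values, MII and TubA-10 had roughly 1.62 and 1.52 times the depth of GV and TubA-20 0.812 times. The enzymes then rested on about 42 fragments (*Pgls* in TubA-20) to 4448 fragments (*G6pdx* in GV). The paper reports more sequence reads for TubA-20 than for GV, while the depth estimated here was lower. The reason was not tested.

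The 7 enzymes did not move together. From GV to TubA-20, the entry enzymes *G6pdx* and *Pgls* and the transketolase *Tkt* were lower by more than 2-fold, the isomerase *Rpia* was higher by more than 2-fold, *Rpe* and *Taldo1* were higher by less, and *Pgd* was within counting error of GV. MII and TubA-10 gave the same order of the 7 enzymes by FPKM, and TubA-20 was lower in *G6pdx*, *Pgls* and *Tkt* and higher in *Rpia* and *Taldo1* than either of them. The plot of FPKM by library shows both directions.

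**Figure D1:**
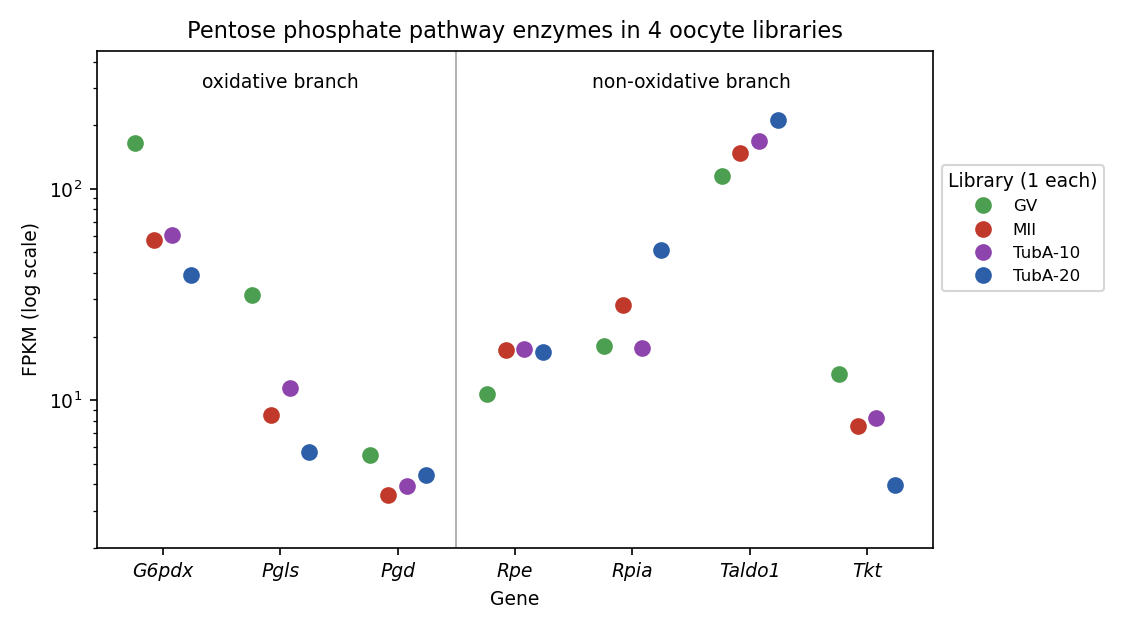
FPKM of each enzyme (y axis, log scale) in the 4 libraries, 1 point for each library and 1 column for each gene, oxidative branch on the left. G6pdx, Pgls and Tkt are highest in GV and lowest in TubA-20, from 164 to 39.3 FPKM for G6pdx, while Taldo1 climbs from 115 to 211 FPKM and Rpia stands at 51.3 FPKM in TubA-20 alone.

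*G6pdx* encodes glucose-6-phosphate dehydrogenase, the entry and main control point of the oxidative branch. It stood at 164 FPKM in GV, 57.1 FPKM in MII, 60.3 FPKM in TubA-10 and 39.3 FPKM in TubA-20. GV was the high library, 2.88-fold above MII and 4.19-fold above TubA-20, and MII and TubA-10 lay close together. The level in GV was above that of 92.3% of the 10199 genes, and that in TubA-20 above 75.3%. In log2 of FPKM + 1, the scale of all changes below, the differences from GV were -1.51 for MII and -1.43 for TubA-10, with -2.04 for TubA-20. The near copy *G6pd2*, 93.2% identical to *G6pdx* over 2332 aligned bases, was listed at 0 in 3 libraries and at 0.051 FPKM in MII.

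*Pgls* encodes 6-phosphogluconolactonase, the second oxidative step. It stood at 31.4 FPKM in GV, 8.48 FPKM in MII, 11.5 FPKM in TubA-10 and 5.67 FPKM in TubA-20. The difference between GV and TubA-20 was the widest of the 7 enzymes, at 5.53-fold or -2.28 on the log2 scale. *Pgls* was also 2.02-fold higher in TubA-10 than in TubA-20 as a plain FPKM ratio, which was -0.90 after the pseudocount. With about 42 fragments in TubA-20, its counting interval for TubA-20 against MII ran from -1.08 to -0.08 log2 of the FPKM ratio (95%, counting error only, from the approximate depths).

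*Pgd* encodes 6-phosphogluconate dehydrogenase, the NADPH-forming step that yields ribulose 5-phosphate. It was the lowest of the 7 enzymes in GV, MII and TubA-10, at 5.49 FPKM, 3.56 FPKM and 3.94 FPKM, and it stood at 4.44 FPKM in TubA-20. All 4 values lay within a 1.54-fold range, the narrowest among the enzymes. The counting interval of *Pgd* held 0 for TubA-20 against each of the other 3 libraries, so no difference of TubA-20 was detectable at this depth. Below GV it lay outside counting error in MII, at an interval of -0.98 to -0.27 log2 of the FPKM ratio, and in TubA-10, at -0.83 to -0.13. Its direction in those libraries was that of the other oxidative enzymes, whose ranges over the libraries were 4.19-fold and 5.53-fold.

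*Rpe* encodes ribulose-5-phosphate 3-epimerase, which makes xylulose 5-phosphate. It stood at 10.7 FPKM in GV, 17.3 FPKM in MII, 17.4 FPKM in TubA-10 and 16.8 FPKM in TubA-20. GV was the low library, and the 3 cultured libraries lay within counting error of each other. Changes from GV were 0.64 for MII and 0.65 for TubA-10, with 0.60 for TubA-20. The 3′ end of *Rpe* overlaps 558 exonic bases of *Kansl1l* on the opposite strand, a gene at 14.7 to 29.4 FPKM. The methods name a strand-specific option for the counting, and how well it kept the pair apart was not checked.

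*Rpia* encodes ribose-5-phosphate isomerase, the other user of ribulose 5-phosphate and the source of ribose 5-phosphate. It stood at 18.0 FPKM in GV, 28.2 FPKM in MII, 17.6 FPKM in TubA-10 and 51.3 FPKM in TubA-20. TubA-20 was the high library, and TubA-10 was level with GV and below MII. TubA-20 was 2.92-fold above TubA-10 and 2.85-fold above GV, or 1.49 and 1.46 on the log2 scale. Of the 10199 genes, 0.157% had a change as high as that of *Rpia* between TubA-10 and TubA-20, and 1.12% had a change as low as its -0.65 between MII and TubA-10. Against MII, the change was 0.84 in TubA-20, and 1.4% of genes reached it.

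*Taldo1* encodes transaldolase, which passes a 3-carbon unit between sugar phosphates. It stood at 115 FPKM in GV, 148 FPKM in MII, 168 FPKM in TubA-10 and 211 FPKM in TubA-20. It was the most abundant of the 7 mRNAs in every library but GV, where *G6pdx* was above it. Against GV it differed by 0.37 for MII and 0.54 for TubA-10, with 0.87 for TubA-20, below 2-fold in each. A processed pseudogene, *Gm17823*, is 94.8% identical to *Taldo1* over 1016 bases and was not analysed here, so how reads of the pair were shared is unknown.

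*Tkt* encodes transketolase, the thiamine-dependent enzyme that passes 2-carbon units and links the branch to glycolysis. It stood at 13.3 FPKM in GV, 7.56 FPKM in MII, 8.23 FPKM in TubA-10 and 3.97 FPKM in TubA-20. *Tkt* was thus ordered over the libraries as *G6pdx* and *Pgls* were, although it belongs to the other branch. Against GV it differed by -0.74 for MII and -0.63 for TubA-10, with -1.52 for TubA-20, and only the last passed 2-fold. TubA-10 was 2.07-fold above TubA-20 as a plain ratio, or -0.89 for TubA-20 after the pseudocount. The study describes a relative increase from GV to MII in control oocytes for a gene set that includes *Tkt*. In the values here *Tkt* was lower in MII than in GV. The study also measured *Tkt* by RT-qPCR on separately prepared oocytes and states that the result matched its sequencing.

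Within a library the ratio of enzymes to each other does not depend on how the library was scaled. The oxidative branch made up 56.2% of the summed FPKM of the 7 enzymes in GV. That share was 25.6% for MII and 26.4% for TubA-10, with 14.8% for TubA-20. The summed FPKM itself ranged only from 271 in MII to 358 in GV, so the make-up differed more than the total. MII and TubA-10 were nearly equal in this share, and TubA-20 was below both. *G6pdx* and *Taldo1* made up most of the sum, at 45.9% and 32.1% in GV and 11.8% and 63.5% in TubA-20. The branch share thus rests mainly on them. *Pgd* was near level, at 1.53% in GV and 1.33% in TubA-20, while the non-oxidative *Tkt* was at 3.71% and 1.19%.

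Single pairs of enzymes showed which genes carried the shift. *G6pdx* was 1.43 times *Taldo1* in GV, and this ratio was 0.385 for MII and 0.359 for TubA-10, with 0.186 for TubA-20. The 2 enzymes that pass carbon units moved apart, with *Taldo1* at 8.65 times *Tkt* in GV and a ratio of 19.6 for MII and 20.4 for TubA-10, with 53.2 for TubA-20. The 2 enzymes that compete for ribulose 5-phosphate behaved in another way, with *Rpia* at 1.68 times *Rpe* in GV and a ratio of 1.63 for MII and 1.01 for TubA-10, with 3.05 for TubA-20. TubA-10 was the lowest of the libraries in this ratio and TubA-20 the highest. The order by FPKM in GV was *G6pdx*, *Taldo1*, *Pgls*, *Rpia*, *Tkt*, *Rpe*, *Pgd*. In TubA-20 it was *Taldo1*, *Rpia*, *G6pdx*, *Rpe*, *Pgls*, *Pgd*, *Tkt*.

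**Figure D2:**
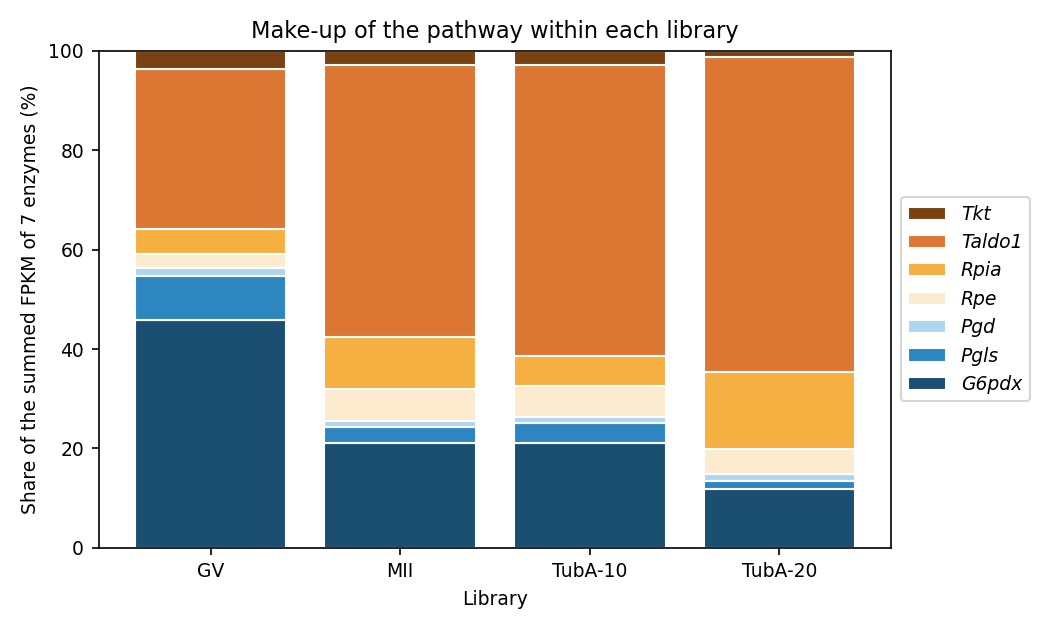
Share of each enzyme in the summed FPKM of the 7 enzymes (y axis, percent) for each library (x axis), oxidative enzymes in blue and non-oxidative enzymes in orange and brown. The blue part takes 56.2% of the GV bar, 25.6% of MII, 26.4% of TubA-10 and 14.8% of TubA-20, and Taldo1 alone takes 63.5% in TubA-20.

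Maturation without the drug was compared first. In MII against GV, 2 of the 7 enzymes, *G6pdx* and *Pgls*, were more than 2-fold lower, against 17.2% of all genes, and none was more than 2-fold higher, against 6.5% of all genes. The median change of the 7 was -0.51, beside 0.07 over all genes. For genes at or above 1 FPKM in every library the median change from GV was 0.14 for MII and 0.16 for TubA-10, with 0.23 for TubA-20, and a change set against the typical expressed gene is lower by that much. Of the 4 cumulus and granulosa markers measured here, *Inha* was more than 2-fold lower in MII than in GV and the other 3 were higher by less. *Inha* reached a mean of 1 FPKM only through GV, so its lower value in MII follows from the filter. The same filter left out *Inhba*, *Inhbb*, *Fshr* and *Amhr2*, which were also highest in GV. The split of these 4 markers is thus no evidence on such cells.

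In TubA-10 against GV, the same 2 enzymes were more than 2-fold lower, against 11.5% of all genes, and none was more than 2-fold higher, against 1.53%. The median change was -0.39, beside 0.10 over all genes. *Rpia* differed from GV by -0.03 in TubA-10, a difference within counting error that turned to 0.040 with equal FPKM sums and to 0.22 with equal *Gapdh*. In TubA-20 against GV, 3 enzymes were more than 2-fold lower, *G6pdx*, *Pgls* and *Tkt*, against 23.9% of all genes, and 1 was more than 2-fold higher, *Rpia*, against 16.2%. The median change was -0.25, beside 0.12 over all genes, since lower and higher members balanced. The 3 comparisons share the GV library, so a high value in GV lowers all 3.

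With MII as the reference, the question was what the drug changed among oocytes of the same culture time. In TubA-10 against MII no enzyme passed 2-fold in either direction, against 0.235% of all genes lower and 1.05% higher. In TubA-20 against MII no enzyme passed 2-fold either, against 5.22% of all genes lower and 0.608% higher. The changes in TubA-20 were -0.53 for *G6pdx*, -0.51 for *Pgls*, -0.79 for *Tkt*, 0.84 for *Rpia* and 0.51 for *Taldo1*. *Pgd* at 0.25 and *Rpe* at -0.04 were within counting error. As plain ratios of FPKM all 7 lay between 0.525 and 1.82. The MII oocytes had been picked for an extruded polar body, while no such choice was stated for the TubA oocytes, so drug and stage cannot be told apart here.

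Between the doses, *Rpia* alone was more than 2-fold higher in TubA-20 than in TubA-10, against 1.27% of all genes. None was more than 2-fold lower, against 11.8% of all genes, with *Pgls* at -0.90 and *Tkt* at -0.89 just inside the threshold. Without a pseudocount both passed it, at -1.02 and -1.05. The median change was -0.05, beside 0.03 over all genes.

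**Figure D3:**
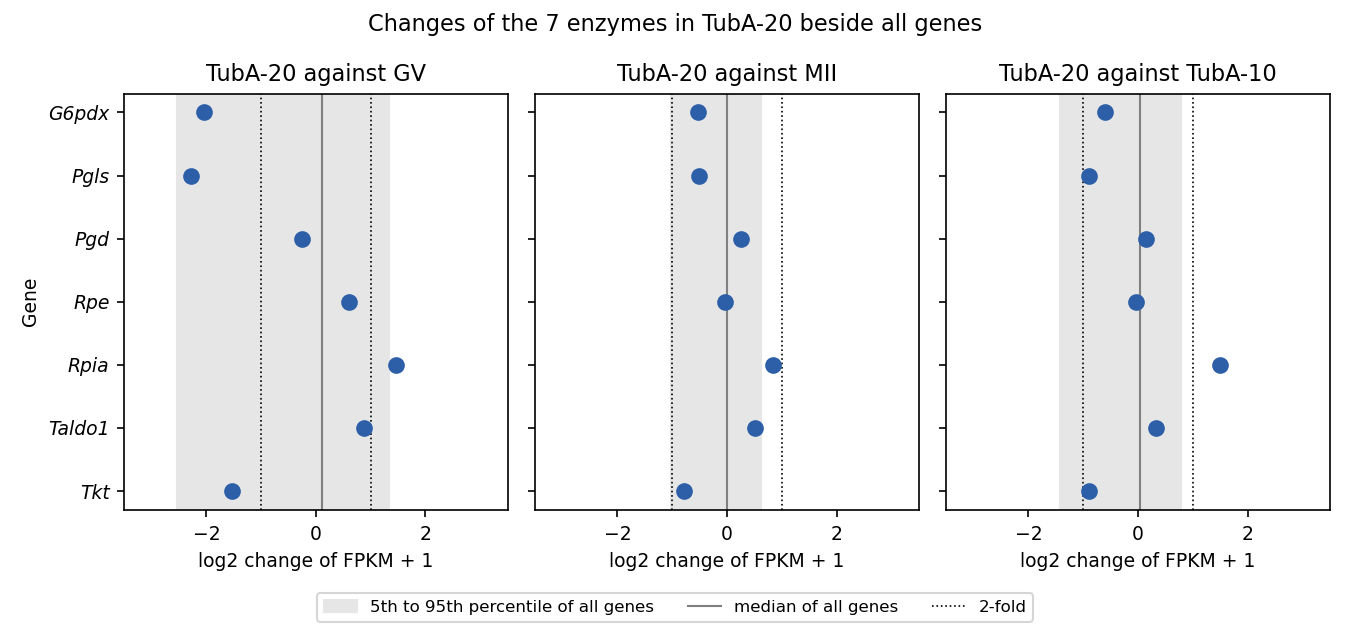
Log2 change of FPKM + 1 (x axis) of each enzyme (rows) in TubA-20 against GV, MII and TubA-10. The grey band runs from the 5th to the 95th percentile of the 10199 genes, the grey line is their median and the dotted lines mark 2-fold. G6pdx, Pgls and Tkt lie left of the 2-fold line in the first panel at -2.04, -2.28 and -1.52, and Rpia lies outside the band on the right in all 3 panels, at 1.46, 0.84 and 1.49.

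Over all genes, those with a CPE near the end and those without differed in their median change. In TubA-20 against GV, the 2523 genes with a CPE in the last 150 bases had a median change of 0.58, and the 3992 genes with no CPE had a median of -0.64. In MII against GV the medians were 0.41 and -0.42, and in TubA-10 against MII the order was the opposite, at -0.10 and 0.15. In the comparisons with GV, *G6pdx* and *Pgls*, with no CPE, and *Taldo1*, with its CPE 47 bases from the end, were on the side of their class. *Tkt* was not, since it has a CPE 60 bases from the end and was lower in every cultured library. *Pgd*, with no CPE, was at -0.51 for MII and -0.39 for TubA-10, with -0.25 for TubA-20. *Rpe* and *Rpia* belong to neither class, since their nearest CPEs lie 501 and 571 bases from the end. A shorter annotated coding transcript, Tkt-207, has a 3′ UTR of 112 bases without a CPE. Which transcript of any of these enzymes the oocytes carried was not measured here. Whether a CPE had a part in the changes of these enzymes was not tested. The classes were not matched for other features of the 3′ UTR.

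Genes with the most similar pattern over the 4 libraries were sought by the distance of the 3 changes from GV, among 5546 genes with a mean of at least 10 FPKM. For *Pgls* they were *Ascc1* at -1.79, -1.34 and -2.27 (MII, TubA-10, TubA-20), *Thap11* at -1.78, -1.45 and -2.32, and the ribosomal protein gene *Rpl8* at -1.68, -1.39 and -2.26. For *Rpia* they were *Pan3* at 0.65, 0.06 and 1.34, *Pabpn1* at 0.78, 0.09 and 1.42, and *Mtdh* at 0.70, 0.15 and 1.37. *Pan3* encodes a subunit of a poly(A) deadenylase and *Pabpn1* the nuclear poly(A) binding protein. With 3 numbers per gene and so many genes, near matches are common.

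The neighbouring lists are read against the same background in TubA-20 against GV, 23.9% of all genes more than 2-fold lower, 16.2% higher and a median of 0.12. Of the enzymes that share sugar phosphates with glycolysis, 6 of the 7 measured were more than 2-fold lower, against 23.9% of all genes, and none higher, against 16.2%, with a median of -1.71. The fructose-bisphosphate aldolase *Aldoa* stood at 194 FPKM in GV, 38.3 FPKM in MII, 45.4 FPKM in TubA-10 and 13.9 FPKM in TubA-20. The glucose-6-phosphate isomerase *Gpi1*, which competes with *G6pdx* for its substrate, stood at 39.5 FPKM, 19.6 FPKM, 12.9 FPKM and 7.25 FPKM in the same order. Both also passed 2-fold below MII in TubA-20, at -1.40 for *Aldoa* and -1.32 for *Gpi1*, which none of the 7 pathway enzymes did. The bisphosphatases *Fbp1* at -1.93 and *Fbp2* at -1.16 and the phosphofructokinases *Pfkm* at -1.71 and *Pfkp* at -1.14 were the others lower than in GV, and the liver-type *Pfkl* was level at 0.06. The study chose *Aldoa*, *Gpi1*, *Fbp1*, *Fbp2*, *Pfkp*, *G6pdx*, *Pgls*, *Tkt*, *Dera* and *Pgm2* for a list made on these same libraries, so their direction is not independent evidence. In TubA-20 against GV, 8 of these 10 genes were more than 2-fold lower, *Dera* was at -0.63, and *Pgm2* was more than 2-fold higher, at 1.04. The study listed *Pgm2* as decreased. *Pgm2* here is ENSMUSG00000029171, and *Pgm1* here is ENSMUSG00000025791, at -1.25. Which of these genes the study meant by the symbol *Pgm2* was not checked, and the count of lower genes rests on the symbols used here.

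The genes listed around the use of ribose 5-phosphate were thin in the table. The phosphoribosyl pyrophosphate synthetases *Prps1* and *Prps2* stayed below 1 FPKM in every library and *Prps1l1* was at 0. None of these synthetases was measured, and the 4 measured genes were *Prpsap1*, *Prpsap2*, *Pgm1* and *Pgm2*. Of these 4, TubA-20 had 2 more than 2-fold below GV and 1 above, beside 23.9% and 16.2% of all genes. These are too few genes to set apart from that background. The synthetase-associated *Prpsap1* stood at 96.4 FPKM in GV and 26.8 FPKM in TubA-20, a change of -1.81, while its relative *Prpsap2* stood at 68.7 FPKM and 76.8 FPKM. The phosphoglucomutase family members *Pgm1* and *Pgm2* differed from GV by -1.25 and 1.04.

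Paralogs of the members were low. The endoplasmic reticulum enzyme *H6pd* and the transketolase-like *Tktl1* stayed below 1 FPKM in all libraries, and *Tktl2* ranged from 0.774 to 1.44 FPKM. Among side enzymes, ribokinase *Rbks* went from 3.44 FPKM in GV to 1.07 FPKM in TubA-20, and the deoxyribose-phosphate aldolase *Dera* from 26.0 FPKM to 16.5 FPKM. The first was more than 2-fold lower at -1.10 and the second was not, at -0.63. None of the 3 measured genes of this list was more than 2-fold higher. The shares of all genes were 23.9% lower and 16.2% higher, and 3 genes are too few to set apart from them.

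Other sources of NADPH showed no common direction. Of 9 measured, TubA-20 had 1 more than 2-fold below GV and 1 above, beside 23.9% and 16.2% of all genes. The NAD kinase *Nadk*, which makes the NADP+ that *G6pdx* reduces, stood at 16.5 FPKM in GV, 32.2 FPKM in MII, 27.4 FPKM in TubA-10 and 51.3 FPKM in TubA-20, a change of 1.58. It was in the same order over the libraries as *Rpia* except that TubA-10 stayed above GV. The cytosolic malic enzyme *Me1* stood at 54.1 FPKM in GV and 85.8 FPKM in TubA-20, a change of 0.65, *Idh1* changed by 0.57, and the folate enzyme *Mthfd2* by 0.89. The formyltetrahydrofolate dehydrogenase *Aldh1l1* was the gene past 2-fold lower, at -1.45. *Mthfd1* at -0.81, *Me2* at -0.35 and *Mthfd1l* at -0.19 were lower by less, so 4 of the 9 were lower than in GV and 5 higher.

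Users of NADPH were as mixed. Of 10 measured, 1 passed 2-fold below GV in TubA-20, beside 23.9% of all genes. The aldose reductase *Akr1b3*, an abundant mRNA, stood at 582 FPKM in GV, 195 FPKM in MII, 300 FPKM in TubA-10 and 114 FPKM in TubA-20, a change of -2.34. The glutathione reductase *Gsr* was low in all, from 0.937 to 1.85 FPKM, and the thioredoxin reductase *Txnrd1* stood at 18.8 FPKM in GV and 35.5 FPKM in TubA-20, a change of 0.88.

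**Figure D4:**
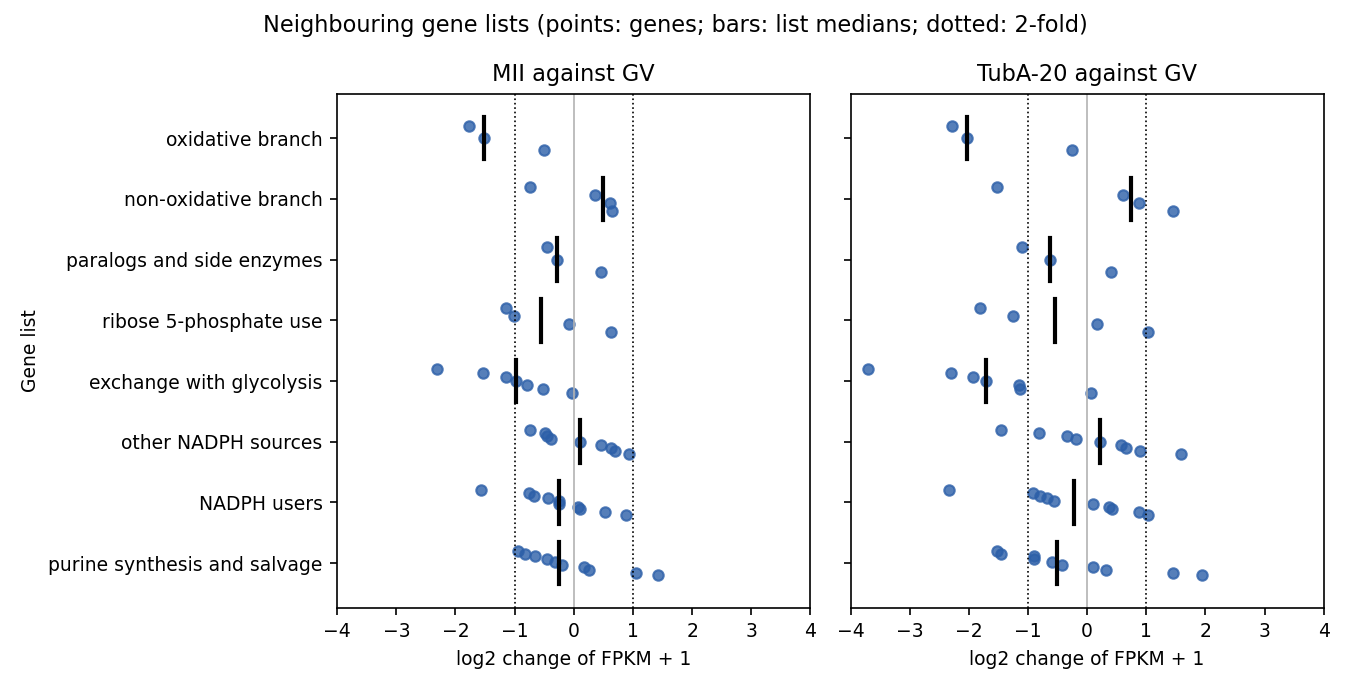
Log2 change of FPKM + 1 from GV (x axis) in MII (left) and TubA-20 (right) for the measured genes of each list (rows), 1 point for each gene, with the list median as a bar and dotted lines at 2-fold. Exchange with glycolysis has 6 of 7 points left of -1 in TubA-20 and a median of -1.71, and the non-oxidative branch has its median at 0.74 with Tkt as its point on the left at -1.52.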

How the data were processed

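The authors deposited 1 table of FPKM values for 4 libraries, made with STAR 2.5.0, Cufflinks and Cuffdiff 2.2.1 on mm10 (submitters' processing notes), so each value was already divided by transcript length and mapped fragments. The labels and the methods name different reagents for RNA extraction. The table held 21959 entries, of which 165 matched no symbol. Values under the same symbol were summed, giving 21957 genes.

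No replicates existed, so no p-value, SD or SE over samples is given. Changes are log2 ratios of FPKM + 1, which understate changes of low genes. A gene passed at more than 2-fold, and percentages of all genes refer to those with a mean of at least 1 FPKM. Comparisons with a shared library are not independent. Depth was estimated from the commonest step of FPKM times transcript length among low genes. It is approximate, and counting intervals (95%) rest on it.

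The 3′ UTRs were read from the principal GENCODE transcript on GRCm38, and near copies were sought with blastn. Protein sequences were not used here. Some results for list genes are not reported here. Named genes were the 7 enzymes, list genes past 2-fold in TubA-20 or giving context, and the 3 genes nearest in pattern to the enzymes that changed most each way. The members and lists were chosen with earlier results of these data known. Alternatives were pseudocounts of 0.1 and 0.01, 4 scalings, other filters on low values, the highest entry per symbol and a 3-fold threshold. No pseudocount, and other transcripts for the CPE count, were added after seeing the data. Scripts were tested on simulated data. Versions were 3.11.15 for Python, 2.4.6 for numpy, 2.3.3 for pandas, 1.17.1 for scipy, and 3.10.9 for matplotlib.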

Additional observations from a re-analysis of the deposited data

Results flagged for a closer look

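For 5 enzymes the change against MII had opposite signs in TubA-10 and TubA-20. The difference was not tested, since each dose had 1 library, and both changes share the MII library. *Rpia* was lower than MII in TubA-10 by -0.65 and higher in TubA-20 by 0.84, a difference of 1.49 between the doses. *Pgls* went from 0.39 to -0.51, a difference of -0.90. *Tkt* went from 0.11 to -0.79, a difference of -0.89, and *G6pdx* from 0.08 to -0.53, a difference of -0.61. *Rpe* went from 0.01 to -0.04, a difference of -0.045 that lies within counting error. The counting intervals of *Tkt* and *G6pdx* for TubA-10 against MII also held 0.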

How the results depend on the processing

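Leaving out a replicate was not possible with 1 library for each condition. No paired analysis was possible because each group holds 1 library, so the groups share fewer than 2 replicate numbers. Of 108 recomputed counts of enzymes past 2-fold, 100 stayed within 1.5 times the value given, and all 48 recomputed medians kept their sign and their side of 2-fold. The count of enzymes lower in TubA-20 than in TubA-10 became 2 with pseudocounts of 0.1 and 0.01, at equal *Gapdh* and with no pseudocount. At a 3-fold threshold the count of lower enzymes became 1 in MII and 0 in TubA-10 against GV, and the count of higher enzymes became 0 in TubA-20 against GV and against TubA-10. Of 336 values of single enzymes, 6 changed sign, all close to 0. *Rpia* in TubA-10 against GV became 0.040 at equal FPKM sums and 0.22 with equal *Gapdh*. *Rpe* in TubA-10 against MII became -0.0081 with the median change set to 0, -0.045 with equal sums and -0.041 with equal upper quartiles. *Pgd* in TubA-20 against TubA-10 became -0.019 with equal *Gapdh*. The shares of all genes moved more, with 40 of 108 beyond 1.5 times the value given. The share higher than in GV ran from 3.05% to 14.7% for MII, from 0.617% to 7.16% for TubA-10 and from 7.61% to 21.1% for TubA-20. The share lower than in GV ran from 11.7% to 27.4% for TubA-20, and the share higher in TubA-20 than in TubA-10 from 0.455% to 2.57%. A CPE was present in 4 of the 7 enzymes, and in 3 if every coding transcript had to hold one. The cause of these shifts was not tested beyond the change of setting. Depth limits *Pgd* and *Pgls* most, which rested on the fewest fragments.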

Other observations

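Of 10 measured purine genes, whose pathway draws on ribose 5-phosphate, 2 passed 2-fold below GV in TubA-20 and 2 above. These counts are near the shares of all genes, 23.9% lower and 16.2% higher, so they say nothing particular about the list. The transformylase and cyclohydrolase *Atic*, which closes the inosine monophosphate ring, stood at 4.94 FPKM in GV, 15.0 FPKM in MII, 13.7 FPKM in TubA-10 and 21.7 FPKM in TubA-20, a change of 1.93 in TubA-20. The salvage enzyme *Hprt* stood at 49.8 FPKM, 103.7 FPKM, 97.7 FPKM and 138.1 FPKM in the same order, a change of 1.45. The adenylosuccinate lyase *Adsl* at -1.45 and the synthase *Adssl1* at -1.52 were the lower pair, and the first enzyme of de novo synthesis, *Ppat*, stayed below 1 FPKM.

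Of 5 regulators of the pathway and of the NADPH response, 2 passed 2-fold below GV in TubA-20 and 1 above, beside the same shares of all genes. *Tigar*, a fructose bisphosphatase that turns glucose toward the pathway, stood at 20.1 FPKM in GV, 13.2 FPKM in MII, 17.6 FPKM in TubA-10 and 9.26 FPKM in TubA-20, a change of -1.04. The deacetylase *Sirt2*, which acts on the *G6pdx* protein, changed by -1.39. *Trp53*, whose product activates *Tigar* transcription, changed by 1.21. The antioxidant factor *Nfe2l2* changed by 0.92 and its partner *Keap1* by -0.24, both under 2-fold.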
